A study of Mus musculus with 24 samples.

Results

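The genes described here are the enzymes and regulators of cholesterol and fatty acid synthesis that answer to the sterol regulatory element-binding proteins (SREBPs). They were taken by gene symbol from a list of 31 names, and all 31 were among the 19953 genes measured. Of these, 19 were enzymes of the sterol pathway, 8 were genes of fatty acid synthesis and desaturation, and 4 were regulators or transport genes (Insig1, Srebf1, Srebf2 and Stard4). The rule that picks them is by name and uses no measured value.

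The study sequenced polyA RNA of mouse embryonic stem cells. There are 24 libraries, which make 8 groups of 3, from 4 genotypes at each of 2 time points. Mll1-KO cells lack the histone H3 lysine methyltransferase MLL1 (gene Kmt2a) and were made by CRISPR deletion in a line whose Mll2 (gene Kmt2b) can be removed by an inducible Cre. Mll2-KO and double-KO cells were obtained by exposing such cells to 800 nM 4-hydroxytamoxifen (4-OHT) for 48 h, whereas Mll1-KO and wild-type (WT) cells are labelled as untreated. Loss of Mll2 and exposure to the drug therefore cannot be told apart in any comparison with Mll1-KO or WT, while double-KO and Mll2-KO cells both had the drug. Day 4 cells were grown with 1 µM retinoic acid and 10% serum, and day 0 cells were grown with leukemia inhibitory factor and 15% serum, all on gelatin. How many clones stand behind each genotype is not stated, nor whether libraries of the same group come from different cultures. The p-values therefore measure only the spread between these libraries, which may be technical.

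Cells make cholesterol from acetyl-CoA through mevalonate, farnesyl diphosphate, squalene and lanosterol. The transcription factor SREBP2 (gene Srebf2) drives the genes of this pathway, and SREBP1 (gene Srebf1) those of fatty acid synthesis. When sterols are scarce in the endoplasmic reticulum the escort protein SCAP carries SREBPs to the Golgi, where proteases release the active factor, and when sterols are plentiful INSIG proteins hold SCAP back. Surplus sterol also yields oxysterols, which activate liver X receptors (LXRs) and with them sterol export genes such as Abca1. Tamoxifen-type drugs are known to bind EBP, the sterol isomerase of the pathway.

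The promoters of 4 members are shown. Nuclear factor Y is known to use the letters CCAAT, and SREBP the letters TCACNCCAC, a form of the sterol regulatory element. All 4 hold CCAAT and only Hmgcs1 holds TCACNCCAC, and no promoter without CCAAT is shown. The RefSeq promoter set, on GRCm38.p6, held 24 of the 31 members, each as 300 bases from 250 before to 50 after the annotated start, and capitals mark CCAAT or TCACNCCAC on either strand. Sequences run along the strand of the gene.
Hmgcs1 (chr13:119690101-119690400, plus strand): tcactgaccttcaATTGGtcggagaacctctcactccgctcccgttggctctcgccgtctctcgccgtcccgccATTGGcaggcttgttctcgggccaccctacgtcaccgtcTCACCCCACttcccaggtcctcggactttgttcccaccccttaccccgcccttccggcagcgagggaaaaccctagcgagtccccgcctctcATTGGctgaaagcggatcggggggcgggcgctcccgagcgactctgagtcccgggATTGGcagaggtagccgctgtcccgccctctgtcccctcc
Msmo1 (chr8:64733529-64733828, minus strand): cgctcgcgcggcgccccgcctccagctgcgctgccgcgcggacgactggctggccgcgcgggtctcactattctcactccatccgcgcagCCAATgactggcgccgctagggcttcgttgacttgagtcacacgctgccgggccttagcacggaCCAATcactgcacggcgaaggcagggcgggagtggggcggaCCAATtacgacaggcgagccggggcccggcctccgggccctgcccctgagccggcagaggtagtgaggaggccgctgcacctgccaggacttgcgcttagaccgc
Lss (chr10:76531355-76531654, plus strand): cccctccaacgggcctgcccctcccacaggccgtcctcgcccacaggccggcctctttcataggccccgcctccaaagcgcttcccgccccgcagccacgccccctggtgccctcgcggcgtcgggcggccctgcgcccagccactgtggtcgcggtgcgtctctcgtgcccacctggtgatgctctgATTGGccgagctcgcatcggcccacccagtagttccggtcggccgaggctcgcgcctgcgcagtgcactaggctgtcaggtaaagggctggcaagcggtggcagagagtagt
Fasn (chr11:120824498-120824797, minus strand): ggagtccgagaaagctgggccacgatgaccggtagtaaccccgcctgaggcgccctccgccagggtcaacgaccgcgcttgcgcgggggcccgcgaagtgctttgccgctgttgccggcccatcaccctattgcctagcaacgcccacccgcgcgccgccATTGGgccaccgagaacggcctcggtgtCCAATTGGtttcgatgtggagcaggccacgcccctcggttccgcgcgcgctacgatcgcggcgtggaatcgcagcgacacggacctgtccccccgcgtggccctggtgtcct
CCAAT was found in 15 of 16 sterol enzyme genes (93.75%) and in 2 of 5 fatty acid genes (40%), beside 41.1% of 27025 genes with a promoter of the same length. The GC box GGGCGG, on either strand, was likewise found in 15 of 16 and 2 of 5, beside 38.2% of all. TCACNCCAC occurred in 1 member, Hmgcs1, starting 137 bases before its start site, and in 1.44% of all genes. These are exact matches of letters in a fixed window and not measured binding, and none of the 3 motifs contains another. Elements that differ from these letters are not counted, so a member without a match is not shown to lack an element.

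Library totals were 17.7 to 22.8 M reads at day 0 and 10.7 to 17.1 M reads at day 4. Levels are normalized counts, and changes are log2 differences of the normalized count plus 1, from limma, called at an adjusted p below 0.05 over all genes tested. Kmt2a held 20.6, 25.4 and 43.0 normalized counts in Mll1-KO and 31.6, 37.0 and 20.6 in double-KO, against 1097, 1047 and 1121 in WT at day 0, and it checks the Mll1 labels. Kmt2b held 2379.9, 2442 and 2798 normalized counts in Mll2-KO and 2565, 2798 and 2556 in double-KO, against 2854, 2899.7 and 2803 in WT. The labels do not say which part of Mll2 the Cre removes, and a count over the whole gene does not check a deletion of part of it, so the Mll2 state rests on the labels. Summed over 9 stem cell markers, day 0 libraries held 119419 to 139343 normalized counts and day 4 libraries 3344 to 10989, which goes with the labels. Summed over 12 endoderm markers, day 0 libraries held 4550 to 5330 in Mll1-KO, 19603 to 20721 in Mll2-KO and 3733 to 3791 in double-KO, against 20127 to 21705 in WT. At day 4 the same sum was 75020 to 79872 in Mll1-KO, 208226 to 215020 in Mll2-KO and 118902 to 123729 in double-KO, against 145095 to 148948 in WT. Col4a1, at 94929 to 98355 in the day 4 WT libraries, made up most of the WT sum. In double-KO against WT at day 4, 2 of the 12 were called higher and 7 lower, beside 27.6% of all genes called higher and 23.3% lower. Of the 12, Afp and Ttr were at 0 in every day 0 mutant library. In bulk RNA fewer cells of a type and less RNA per cell cannot be told apart, and the part of these markers in the results below was not tested.

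Library 3 of the day 0 Mll2-KO group stood apart from the other two libraries of its group in these genes. It was the highest of the 3 in 31 of 31 members, beside 38.3% of 13984 genes, and the median member was 0.64 higher on the log2 scale than the mean of its group mates, beside 0.00 over all genes. Insig1 held 991, 948 and 2097 normalized counts in libraries 1 to 3 of that group, Fdps 1771, 1637 and 3211, and Scd1 2240.3, 1941 and 4297. Libraries 1 and 2 lay close to each other in these genes while library 3 lay within the double-KO range in Fdps and above it in Insig1 and Scd1. Over all genes the chi-square per degree of freedom of the recovered reads was 11.5 and 11.4 for library 3 against libraries 1 and 2, and 3.54 between libraries 1 and 2. Summed over the 9 stem cell markers the group held 135797 to 136443 normalized counts, but single markers of library 3 lay apart in both directions, with Esrrb at 17712, 18229.8 and 23120.1, Tbx3 at 5677, 5986 and 7537 and Dppa5a at 24139, 24591 and 20069.7 in libraries 1 to 3. These 3 markers were named after their values were seen, and their part in the results was not tested. Libraries 1 to 3 held 19.0, 21.0 and 22.8 M reads. For the comparisons that hold this group, counts and main values of the members are given with and without it.

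**Figure D1:**
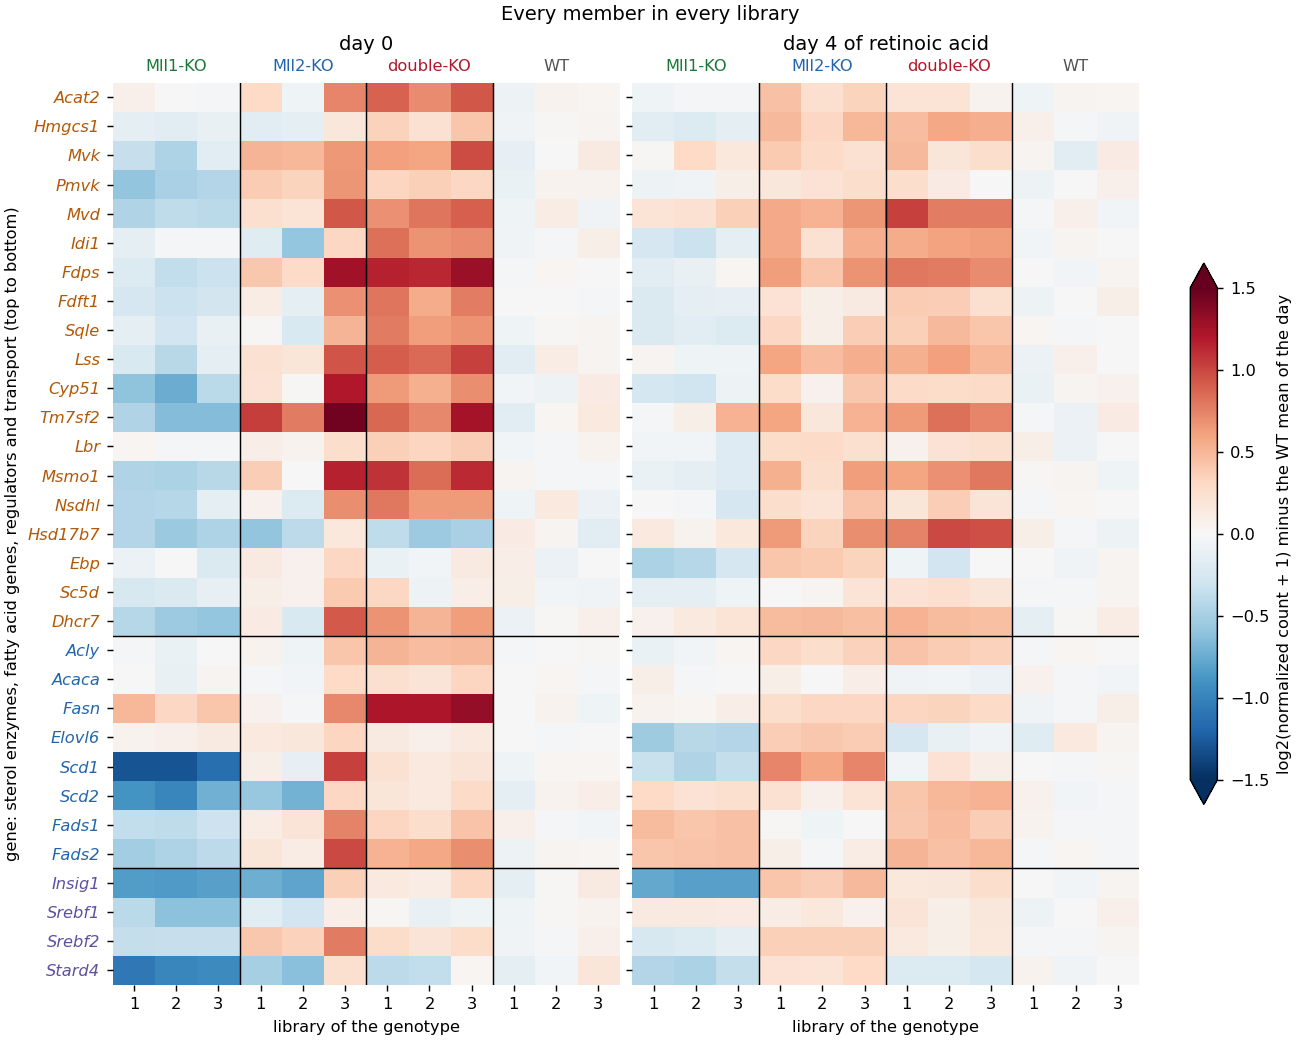
Each of the 31 members in each of the 24 libraries, as log2(normalized count + 1) minus the WT mean of the same day (colour), with sterol enzymes at the top, fatty acid genes in the middle and regulators at the bottom. At day 0 the double-KO libraries and library 3 of Mll2-KO are red in most sterol rows, and Mll1-KO libraries are blue in Scd1, Scd2, Insig1 and Stard4.

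Across all libraries the members spanned a wide range of RNA. Per kilobase of annotated exon, the mean in day 0 WT cells was highest for Scd2, the main stearoyl-CoA desaturase of many embryonic cells, at 2077 normalized counts per kilobase, and for Acly, ATP-citrate lyase, at 1471. The lowest were Hsd17b7 at 39.4 and Tm7sf2 at 35.1 normalized counts per kilobase, both enzymes of the steps after lanosterol. All 31 members passed the filter on low values in both days. Some counts are less certain, since 50-base stretches of the exons occur elsewhere in annotated transcripts: 39.1% of those of Acat2 (shared with Acat3), 30.4% of Acaca, 26.2% of Fdps (with the overlapping Gm43738) and 17.7% of Idi1.

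At day 0 the median of the 19 sterol enzymes, relative to the WT mean, was -0.26, -0.38 and -0.22 on the log2 scale in the 3 Mll1-KO libraries, 0.13, 0.02 and 0.69 in Mll2-KO, and 0.68, 0.59 and 0.70 in double-KO, against -0.06, 0.02 and 0.04 in WT. The double-KO libraries lay above and the Mll1-KO libraries below every WT library. In Mll2-KO library 1 lay above the WT libraries, library 2 among them and library 3 within the double-KO range. At day 4 the medians were -0.08, -0.07 and -0.06 in Mll1-KO, 0.44, 0.27 and 0.43 in Mll2-KO, and 0.46, 0.48 and 0.41 in double-KO, against -0.03, -0.01 and 0.02 in WT. The 8 fatty acid genes had day 0 medians of 0.28, 0.23 and 0.37 in double-KO, below the sterol medians of the same libraries.

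**Figure D2:**
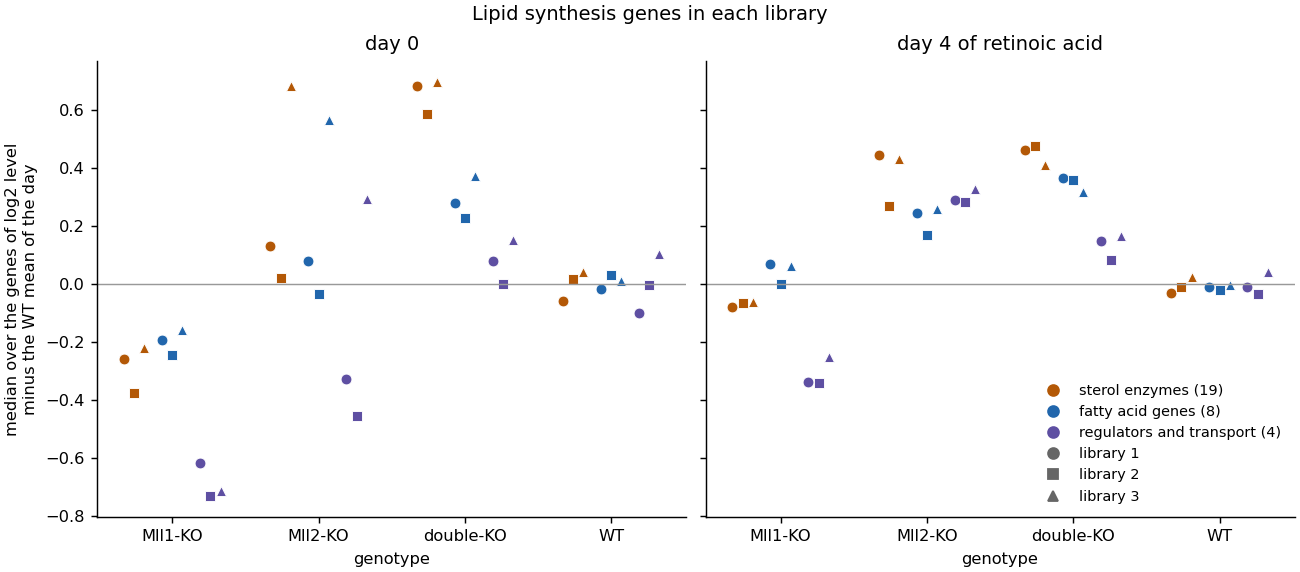
Median over the sterol enzymes, the fatty acid genes and the regulators of the log2 level minus the WT mean of the day (vertical axis), for each library (symbol) of each genotype. Library 3 of the day 0 Mll2-KO group, at 0.69 for the sterol enzymes, sits apart from libraries 1 and 2 at 0.13 and 0.02.

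In Mll1-KO stem cells at day 0 several genes of both arms were lower than in WT, most of all Scd1, Stard4, Scd2 and Insig1. Of the 19 sterol enzymes 8 fell and 0 rose, beside 18.7% of all genes tested that were called lower (21.3% higher). Of the 8 fatty acid genes 4 fell, all of them desaturases, and 1 rose, and all 4 regulators fell. The median change was -0.30 for sterol enzymes and -0.20 for fatty acid genes on the log2 scale, against 0.00 over all genes.
Scd1 (chr19:44394455-44407879), a stearoyl-CoA desaturase that makes oleate, held 858, 861 and 961 normalized counts in Mll1-KO, against 2022, 2154 and 2152 in WT (log2 change -1.24, SE 0.16, adjusted p = 4.8e-06). Its neighbour Scd2 (chr19:44293674-44306864) held 6069, 5733 and 6866 normalized counts in Mll1-KO, against 10219.7, 11711 and 12108 in WT (log2 change -0.87, SE 0.15, adjusted p = 1.4e-04). For both genes every Mll1-KO library lay below every WT library, and the exons of the pair share under 5% of their 50-base stretches. The polyunsaturated fatty acid desaturases Fads1 (log2 -0.35, adjusted p = 0.01) and Fads2 (log2 -0.46, adjusted p = 0.011) fell less.
Fasn, the fatty acid synthase (chr11:120805846-120824547), went the other way, with 9443, 8321 and 8952 normalized counts in Mll1-KO, against 6721, 6948 and 6412 in WT (log2 change 0.41, SE 0.11, adjusted p = 0.0068), so that the maker of palmitate rose in cells whose desaturases fell. The Fasn call is lost under DESeq2, which called 0 fatty acid genes higher in Mll1-KO.
Among sterol enzymes the largest falls were in the steps after lanosterol: Cyp51, the lanosterol demethylase, held 756, 687 and 868 normalized counts in Mll1-KO, against 1120.2, 1089 and 1249 in WT (log2 change -0.58, SE 0.18, adjusted p = 0.012), and this call is lost without Mll1-KO library 2 (adjusted p = 0.057) or WT library 3 (adjusted p = 0.053). Tm7sf2, a sterol reductase, held 112, 97.6 and 97.8 normalized counts in Mll1-KO, against 136, 156 and 171 in WT (log2 change -0.58, SE 0.15, adjusted p = 0.0047), and 9.87% of its 50-base stretches are shared with Vps51. Dhcr7, which performs the last step to cholesterol in one branch of the pathway, fell by 0.52 on the log2 scale (adjusted p = 0.015), a call lost without Mll1-KO library 3 or WT library 3 (adjusted p = 0.056 for the second).
Insig1 (chr5:28071363-28078662), which holds the SCAP-SREBP complex in the endoplasmic reticulum and is itself an SREBP target, held 921, 914 and 935 normalized counts in Mll1-KO, against 1484, 1659 and 1798 in WT (log2 change -0.83, SE 0.18, adjusted p = 7.8e-04). Stard4, a sterol carrier, held 364, 388 and 395 in Mll1-KO, against 699.8, 744 and 868 in WT (log2 change -1.0, SE 0.15, adjusted p = 2.5e-05). Srebf1 (log2 -0.54, adjusted p = 2.2e-05) and Srebf2 (log2 -0.35, adjusted p = 7.3e-04) fell as well.
The number of sterol enzymes called lower rested on the spread between libraries. It was 4 without library 2 of Mll1-KO or library 3 of WT, 5 without library 2 of WT, and 14 without library 3 of Mll2-KO, whose group is not compared here but shares the estimate of the spread. In the fit without library 3 of Mll2-KO 20.6% of all genes were called lower. Calls over all genes were 3398 lower and 2164 higher with equal column totals, against 2616 and 2978 in the fit reported.

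In double-KO stem cells at day 0 the sterol pathway stood above WT almost throughout. Of 19 sterol enzymes 16 rose and 1 fell, beside 26.6% of all genes called higher and 27.1% lower. Of 8 fatty acid genes 6 rose, and Srebf2 was the 1 regulator that rose. The median change was 0.69 for sterol enzymes and 0.29 for fatty acid genes on the log2 scale, against 0.00 over all genes. The rise covered the 7 early enzymes up to farnesyl diphosphate (7 of 7), the 3 of squalene and lanosterol (3 of 3) and 6 of the 9 after lanosterol.
Fdps, farnesyl diphosphate synthase (chr3:89093588-89101959), held 2986, 2939 and 3292 normalized counts in double-KO, against 1315, 1370.1 and 1333 in WT (log2 change 1.20, SE 0.15, adjusted p = 9.1e-07). Msmo1, a methylsterol monooxygenase of the demethylation steps (chr8:64718139-64733792), held 2143, 1803 and 2203 in double-KO, against 1036, 994 and 999 in WT (log2 change 1.02, SE 0.16, adjusted p = 2.4e-05). For both genes every double-KO library lay above every WT library. Lss, lanosterol synthase, held 1917, 1846 and 2080.4 normalized counts in double-KO, against 915, 1104 and 1052 in WT (log2 change 0.93, SE 0.13, adjusted p = 5.7e-06).
Hmgcs1, which makes HMG-CoA and whose promoter holds the TCACNCCAC match shown above (chr13:119690379-119708260), rose less, with 3362, 3121 and 3556 normalized counts in double-KO, against 2551, 2685 and 2730.5 in WT (log2 change 0.33, SE 0.07, adjusted p = 4.0e-04).
The sterol enzymes that did not rise were all late ones. Hsd17b7, a ketoreductase of sterol demethylation, fell, with 153, 136 and 143 normalized counts in double-KO, against 218, 207 and 178 in WT (log2 change -0.47, SE 0.15, adjusted p = 0.012), a call that is lost without WT library 1 (log2 change -0.41, adjusted p = 0.055) and under quantile scaling (-0.35, adjusted p = 0.068). Ebp, the isomerase that tamoxifen-type drugs bind, held 345, 362 and 407 normalized counts in double-KO, against 397, 349 and 369.7 in WT (log2 change -0.00, SE 0.09, adjusted p = 0.98). Sc5d, a sterol desaturase, differed by 0.11 (adjusted p = 0.37). The other sterol enzymes that rose ranged on the log2 scale from Pmvk, a mevalonate pathway kinase (0.33), and Lbr, a sterol reductase of the nuclear envelope (0.35), up to Tm7sf2 (0.94), with the squalene enzymes Fdft1 (0.71) and Sqle (0.69) between them.
In the fatty acid arm Fasn gave the largest change of any member, with 15492, 15508 and 16671 normalized counts in double-KO, against 6721, 6948 and 6412 in WT (log2 change 1.25, SE 0.11, adjusted p = 1.7e-08). The double-KO libraries lay far above all WT libraries. Fads2 (log2 0.60, adjusted p = 0.001) and Acly (log2 0.49, adjusted p = 1.5e-05) rose by less, and so did Fads1 (0.33), the carboxylase Acaca (0.25) and Elovl6 (0.12). Scd1 (log2 0.19, adjusted p = 0.34) and Scd2 (log2 0.20, adjusted p = 0.28) did not pass the test in the fit with all 12 libraries.
Insig1 was 0.19 on the log2 scale (adjusted p = 0.38) and Stard4 -0.24 (adjusted p = 0.19), so neither was called with all libraries in the fit. Library 3 of Mll2-KO is not compared here but shares the estimate of the spread. Without it Insig1 was called higher (adjusted p = 0.011), Stard4 lower (adjusted p = 0.029) and Scd1 and Scd2 higher (adjusted p = 0.0054 and 0.0057), so that 8 of 8 fatty acid genes and 2 of 4 regulators rose and 1 regulator fell, while the sterol calls numbered 16 and 1 as before. In that fit 28.4% of all genes were called higher and 28.5% lower. Of the 10 endoderm markers tested, 10 were called lower in double-KO at day 0, and their part in the result was not tested.

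**Figure D3:**
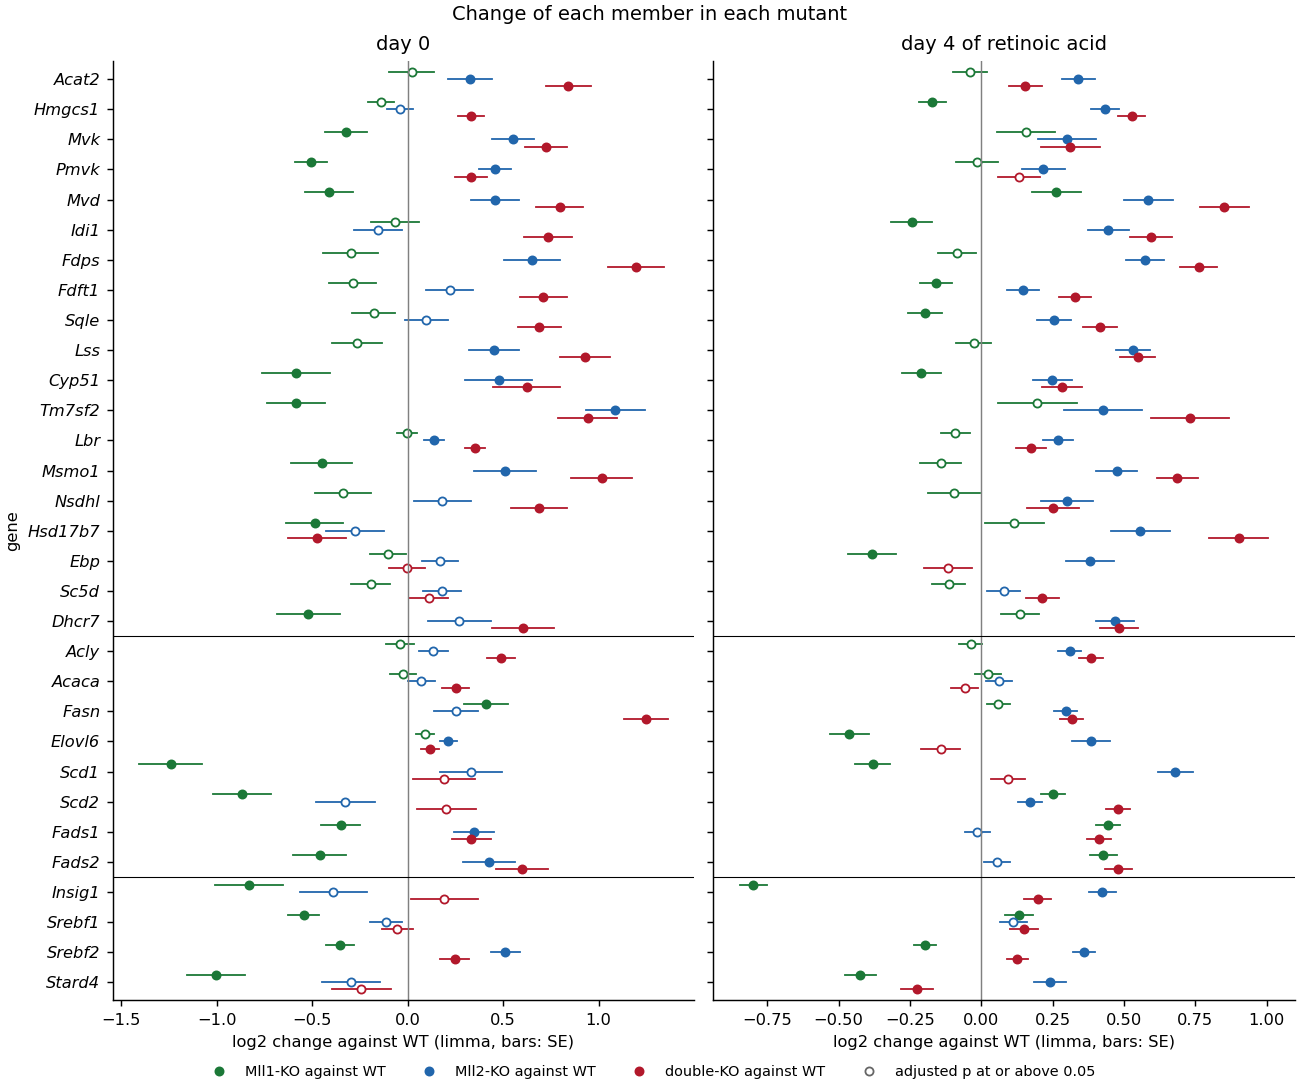
Log2 change against WT (horizontal axis, bars are SE from limma) of each member for the 3 mutant genotypes (colours), one panel a day, with filled points for an adjusted p below 0.05. At day 0 double-KO reaches 1.25 in Fasn and 1.20 in Fdps, and Mll1-KO reaches -1.24 in Scd1.

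Double-KO cells at day 0 were set directly against Mll1-KO cells, which also lack Mll1 but had neither the drug nor loss of Mll2. The double-KO cells were higher in nearly every member. Of 19 sterol enzymes 17 rose, of 8 fatty acid genes 7 and of 4 regulators 4, with 0 falls, beside 18.9% of all genes called higher and 22% lower. The median change was 1.00 for sterol enzymes and 0.76 for fatty acid genes on the log2 scale, against -0.02 over all genes. Tm7sf2 (log2 1.53), Fdps (1.49), Msmo1 (1.47) and Scd1 (1.43) changed most. Insig1 held 1822, 1771 and 2046 normalized counts in double-KO, against 921, 914 and 935 in Mll1-KO (log2 change 1.02, SE 0.18, adjusted p = 1.2e-04). Ebp and Hsd17b7 were the sterol enzymes not called, and Elovl6, a fatty acid elongase, the fatty acid gene not called.

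In Mll2-KO stem cells at day 0 the calls turned on library 3. With all 3 libraries 10 of 19 sterol enzymes and 3 of 8 fatty acid genes rose and 0 fell, beside 22.8% of all genes called higher and 24.3% lower. Without library 3, 6 sterol enzymes rose and 3 fell, and 1 fatty acid gene rose and 1 fell, beside 20.0% and 21.5% of all genes, and the sterol median changed to 0.10 on the log2 scale, against 0.27 with it. Fatty acid calls were also 5 without library 1 and 6 without library 2 of Mll2-KO.
Members that rose with and without it were Tm7sf2, Mvk, Pmvk, Fdps, Mvd, Lss, Elovl6 and Srebf2. Tm7sf2 held 317, 265 and 420.2 normalized counts in Mll2-KO, against 136, 156 and 171 in WT (log2 change 1.09, SE 0.15, adjusted p = 8.9e-06, and 0.91 without library 3). Vps51, with which 9.87% of its 50-base stretches are shared, had day 0 means of 507 normalized counts in Mll2-KO and 483 in double-KO. Its day 0 mean was 350 in WT and 340 in Mll1-KO, and its part in the Tm7sf2 counts was not tested. Mvk, mevalonate kinase, held 392, 389 and 432 in Mll2-KO, against 252, 275 and 301 in WT (log2 change 0.55, SE 0.11, adjusted p = 3.6e-04, and 0.50 without library 3). Srebf2 itself (chr15:82147181-82205379) held 6449.8, 6152 and 8349.8 normalized counts in Mll2-KO, against 4671, 4789 and 5112 in WT (log2 change 0.51, SE 0.07, adjusted p = 1.2e-05, and 0.38 without library 3), so every Mll2-KO library lay above every WT library.
Insig1 was called lower once library 3 was left out. With all libraries its change was -0.39 on the log2 scale (adjusted p = 0.076), and without library 3 it was -0.76 (adjusted p = 3.2e-09), libraries 1 and 2 lying below all WT libraries and library 3 above them. Scd2 (-0.64, adjusted p = 3.1e-08), Stard4 (-0.56, adjusted p = 1.1e-04) and Idi1 (-0.39, adjusted p = 2.8e-04) were likewise lower than WT in the fit without library 3 and were not called with it. The same held for Hsd17b7 (-0.49, adjusted p = 0.0054), Srebf1 (-0.22, adjusted p = 0.015) and Hmgcs1 (-0.15, adjusted p = 0.025). Of the 4 regulators 1 rose and 0 fell with library 3, and 1 rose and 3 fell without it.

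Between the 2 genotypes that both had the drug, double-KO cells at day 0 were higher than Mll2-KO cells in part of both arms. Of 19 sterol enzymes 11 rose and 0 fell, and of 8 fatty acid genes 4 rose and 0 fell, beside 23.4% of all genes called higher and 24.3% lower. Without library 3 of Mll2-KO these were 13 and 7, beside 23.2% of all genes called higher and 23.5% lower. Without library 2 of Mll2-KO the fatty acid count was 2, and DESeq2 called 6 sterol enzymes higher. Idi1, isopentenyl diphosphate isomerase, held 2854, 2584 and 2634 normalized counts in double-KO, against 1417, 1075 and 1995 in Mll2-KO (log2 change 0.89, SE 0.13, adjusted p = 8.1e-06, and 1.12 without library 3). Fasn held 15492, 15508 and 16671 in double-KO, against 7019, 6579.6 and 11019 in Mll2-KO (log2 change 0.99, SE 0.11, adjusted p = 5.5e-07, and 1.22 without library 3). In both genes the double-KO libraries lay above all 3 Mll2-KO libraries, library 3 included. Srebf2 went the other way, lower in double-KO (log2 change -0.26, SE 0.07, adjusted p = 0.0061), and without library 3 of Mll2-KO the change was -0.13 (adjusted p = 0.025). Insig1 was 0.58 (adjusted p = 0.01), a call lost without Mll2-KO library 1 (adjusted p = 0.069) or library 2 (adjusted p = 0.084), and it was 0.95 without library 3 (adjusted p = 4.0e-11). Stard4 was called higher without library 3 (0.32, adjusted p = 0.013) and not with it (0.05, adjusted p = 0.79). With equal column totals the calls over all genes were 2565 higher and 4170 lower, against 3266 and 3401.

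The change that goes with loss of Mll2 and the drug can be set side by side in cells that lack Mll1 and in cells that have it. Non-additivity is the difference of these, the change of double-KO from Mll1-KO minus the change of Mll2-KO from WT. At day 0 this difference was positive for 12 of 19 sterol enzymes, 5 of 8 fatty acid genes and 3 of 4 regulators and negative for 0, beside 4.42% of all genes called positive and 4.71% negative. The median was 0.73 for sterol enzymes and 0.49 for fatty acid genes on the log2 scale, against -0.02 over all genes. DESeq2 called 7 sterol enzymes and 1 fatty acid gene, and with no filter on low values 2 fatty acid genes were called. Insig1 (1.41, SE 0.25, adjusted p = 9.7e-04), Scd2 (1.39, SE 0.22, adjusted p = 2.7e-04), Scd1 (1.10, adjusted p = 0.0045) and Stard4 (1.06, adjusted p = 0.0034) had the largest differences, and Idi1 (0.96, adjusted p = 0.0016) and Msmo1 (0.95, adjusted p = 0.011) the largest among enzymes of sterol synthesis. Without library 3 of Mll2-KO, 16 sterol enzymes, 7 fatty acid genes and 4 regulators were called positive, beside 5.09% of all genes positive and 5.39% negative. The difference was then 1.78 for Insig1, 1.71 for Scd2, 1.45 for Scd1, 1.32 for Stard4, 1.19 for Idi1 and 1.27 for Msmo1. The fatty acid count was 2 without library 2 of Mll1-KO, of Mll2-KO or of WT and 3 without library 3 of Mll1-KO, library 1 of Mll2-KO, library 1 or 3 of WT or any 1 library of double-KO.

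After 4 days of retinoic acid the sterol pathway was higher than in WT in both Mll2-KO and double-KO cells. In Mll2-KO cells 18 of 19 sterol enzymes, 5 of 8 fatty acid genes and 3 of 4 regulators rose with 0 falls, beside 25.4% of all genes called higher and 20.3% lower, and the exception among the enzymes was Sc5d. The median was 0.38 for sterol enzymes and 0.23 for fatty acid genes on the log2 scale, against 0.04 over all genes. Summed over the 9 stem cell markers, with 0 of the 9 at 0, day 4 libraries held 9568 to 10989 normalized counts in Mll2-KO, against 5902 to 7164 in WT, and 7 of the 9 were called higher and 0 lower. The part of these markers in the result was not tested.
Mvd, mevalonate diphosphate decarboxylase, held 328, 319 and 351 normalized counts in Mll2-KO, against 216, 233 and 216 in WT (log2 change 0.58, SE 0.09, adjusted p = 4.5e-06). Fdps held 979, 841 and 1010.4 in Mll2-KO, against 629, 616 and 650.3 in WT (log2 change 0.57, SE 0.07, adjusted p = 1.1e-07), and Hsd17b7 271, 219 and 284 in Mll2-KO, against 185, 172 and 165 in WT (log2 change 0.56, SE 0.10, adjusted p = 8.8e-05). In these genes all Mll2-KO libraries were above all WT libraries.
Scd1 was the most changed fatty acid gene, with 1548, 1396 and 1547 normalized counts in Mll2-KO, against 935, 919 and 944 in WT (log2 change 0.68, SE 0.06, adjusted p = 1.3e-09), followed by Elovl6 (0.38, adjusted p = 4.9e-05) and Acly (0.31, adjusted p = 9.0e-07). Fads1 and Fads2 were -0.01 and 0.06 on the log2 scale and not called. Insig1 held 2032, 1967 and 2136 normalized counts in Mll2-KO, against 1518, 1483 and 1570.4 in WT (log2 change 0.42, SE 0.05, adjusted p = 7.5e-08), and Srebf2 5508, 5504 and 5506 in Mll2-KO, against 4239, 4203 and 4417 in WT (log2 change 0.36, SE 0.04, adjusted p = 2.7e-08). With equal column totals 13 sterol enzymes and 4 fatty acid genes were called higher, and calls over all genes were 2045 higher and 3885 lower, against 3634 and 2903.

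In double-KO cells at day 4, 17 of 19 sterol enzymes and 5 of 8 fatty acid genes rose against WT with 0 falls, beside 27.6% of all genes called higher and 23.3% lower. The median was 0.42 for sterol enzymes and 0.35 for fatty acid genes on the log2 scale, against 0.03 over all genes. Hsd17b7, which had fallen at day 0, changed most, with 292, 346 and 342 normalized counts in double-KO, against 185, 172 and 165 in WT (log2 change 0.90, SE 0.10, adjusted p = 6.7e-08). Mvd held 449.9, 377 and 379 in double-KO, against 216, 233 and 216 in WT (log2 change 0.85, SE 0.09, adjusted p = 8.1e-09), and Fdps 1094, 1088 and 1034 in double-KO, against 629, 616 and 650.3 in WT (log2 change 0.76, SE 0.07, adjusted p = 5.4e-10). The double-KO libraries of these genes lay above all WT libraries.
The fatty acid genes that rose were Scd2 (0.48), Fads2 (0.48), Fads1 (0.41), Acly (0.38) and Fasn (0.32), on the log2 scale, with adjusted p of at most 3.9e-07. Fasn had been 1.25 at day 0. Insig1 (0.20, adjusted p = 0.0012), Srebf1 (0.15, adjusted p = 0.013) and Srebf2 (0.13, adjusted p = 0.0074) rose and Stard4 fell (-0.22, adjusted p = 0.0013). The Srebf2 call did not hold under quantile scaling, where the change was -0.0056, and the Srebf1 call did not hold without WT library 1 (0.11, adjusted p = 0.084) or double-KO library 1 (0.13, adjusted p = 0.054). Scaled to equal column totals, calls over all genes were 2898 higher and 4106 lower, against 3945 and 3332, and 14 sterol enzymes were called higher. Summed over 6 fibroblast or feeder markers, with 0 of the 6 at 0, the day 4 libraries held 42326 to 48208 normalized counts in double-KO, against 17545 to 20418 in WT. Acta2, at 32913, 31663 and 27842, made up most of the double-KO sum. Of the 6 markers 4 were called higher and 2 lower, Col1a2 with 11.2, 7.67 and 9.12 in double-KO, against 70.1, 75.2 and 93.1 in WT, and Thy1 with 16.8, 9.20 and 10.3 in double-KO, against 29.5, 34.1 and 36.5 in WT. The 9 stem cell markers summed to 5810.2 to 6174 in double-KO, against 5902 to 7164 in WT, with 2 called higher and 4 lower. The part of either list in the result was not tested.

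Mll1-KO cells at day 4 split the fatty acid arm. Of 8 fatty acid genes 3 rose and 2 fell, and of 19 sterol enzymes 1 rose and 6 fell, beside 16.5% of all genes called higher and 19.2% lower. The median was -0.09 for sterol enzymes and 0.04 for fatty acid genes on the log2 scale, against -0.00 over all genes. Fads1 held 2506, 2402 and 2436 normalized counts in Mll1-KO, against 1863, 1770.3 and 1766 in WT (log2 change 0.44, SE 0.04, adjusted p = 1.2e-08), Fads2 changed by 0.43 (adjusted p = 7.9e-08) and Scd2 by 0.25 (adjusted p = 5.6e-05). Scd1 stayed lower, with 741, 683 and 725 normalized counts in Mll1-KO, against 935, 919 and 944 in WT (log2 change -0.38, SE 0.06, adjusted p = 1.8e-05), and Elovl6 fell too (-0.46, adjusted p = 6.5e-06). So 3 desaturases were above WT and the fourth below it.
Insig1 was the member furthest from WT, with 896, 863 and 868 normalized counts in Mll1-KO, against 1518, 1483 and 1570.4 in WT (log2 change -0.80, SE 0.05, adjusted p = 1.6e-12). Ebp held 256, 265 and 299 in Mll1-KO, against 358, 343 and 368 in WT (log2 change -0.38, SE 0.08, adjusted p = 7.5e-04). The other sterol enzymes that fell were Idi1 (-0.24), Cyp51 (-0.21), Sqle (-0.20), Hmgcs1 (-0.17) and Fdft1 (-0.16), on the log2 scale, of which the Cyp51 call is lost without library 1 or 2 of Mll1-KO or library 2 or 3 of WT and the Idi1 call without library 2 of Mll1-KO (adjusted p = 0.061), and 1 was called lower when all 24 libraries shared the fit. Mvd rose (0.26, adjusted p = 0.019), a call lost without Mll1-KO library 3 (0.22, adjusted p = 0.09), WT library 1 (0.25, adjusted p = 0.053) or WT library 3 (0.24, adjusted p = 0.059). Of the regulators Stard4 (-0.42, adjusted p = 1.0e-06) and Srebf2 (-0.20, adjusted p = 2.2e-04) fell with Insig1, and Srebf1 rose (0.13, adjusted p = 0.037), a call lost without any 1 library of Mll1-KO or without library 1 or 2 of WT. Calls over all genes under equal column totals were 3137 higher and 2063 lower, against 2367 and 2753. All 12 endoderm markers were called lower in Mll1-KO at day 4, and 9 of 12 higher in Mll2-KO with 1 lower. The 9 stem cell markers summed to 3344 to 3845 normalized counts in Mll1-KO, against 5902 to 7164 in WT, with 8 called lower and 0 higher, and their part in the result was not tested.

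At day 4 double-KO cells were again above Mll1-KO cells in 17 of 19 sterol enzymes and 5 of 8 fatty acid genes with 0 falls, beside 31.1% of all genes called higher and 23.7% lower. With equal column totals calls over all genes were 2684 higher and 4731 lower, against 4443 and 3391, 15 sterol enzymes were called higher, and the median of all genes was -0.06, against 0.04. Insig1 held 1697, 1714 and 1835 normalized counts in double-KO, against 896, 863 and 868 in Mll1-KO (log2 change 1.00, SE 0.05, adjusted p = 8.3e-15), beside 1.02 at day 0. Fdps (0.85) and Idi1 (0.84) changed most among the enzymes.
Against Mll2-KO the double-KO cells at day 4 showed no common direction in either arm. Of 19 sterol enzymes 6 rose and 2 fell, and of 8 fatty acid genes 3 rose and 3 fell. Over all genes 19.4% were called higher and 20.9% lower. Of the 4 regulators 0 rose and 3 fell, with a median of -0.23 on the log2 scale. The sterol count of 6 was 0 without Mll2-KO library 2, and the 2 lower calls were 1 without Mll2-KO library 1 or double-KO library 3. Ebp (log2 change -0.50, SE 0.08, adjusted p = 3.2e-05) was the sterol enzyme that fell most. Scd1 (-0.59) and Elovl6 (-0.53) fell while Fads1 (0.43), Fads2 (0.43) and Scd2 (0.31) rose. Acaca was -0.12 (adjusted p = 0.037), a call lost without library 1 or 3 of Mll2-KO or any 1 library of double-KO.
Non-additivity at day 4 was positive for 6 of 19 sterol enzymes (Idi1, Sqle, Msmo1, Fdft1, Hmgcs1 and Sc5d) and for Insig1 (0.57, SE 0.07, adjusted p = 3.0e-06) and negative for 0 members, beside 7.59% of all genes called positive and 6.05% negative. When all 24 libraries shared the fit, 0 sterol enzymes were called. The Msmo1 call is lost also without library 3 of Mll1-KO, library 2 of Mll2-KO, library 2 of WT or library 3 of double-KO. The 8 fatty acid genes ranged from -0.21 in Scd1 to 0.11 in Acly on the log2 scale and were not called.

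In WT cells most of the pathway was lower at day 4 than at day 0. The medium, the serum and the cell state all differ between the days, so their parts cannot be told apart. Of 19 sterol enzymes 14 fell and 1 rose, and of 8 fatty acid genes 5 fell and 3 rose, beside 39.9% of all genes called lower and 43% higher. The median was -0.46 for sterol enzymes and -0.50 for fatty acid genes on the log2 scale, against 0.04 over all genes, and the median of all genes was 0.17 with equal column totals and -0.11 under quantile scaling.
Elovl6, which lengthens palmitate, fell most, with 830.2, 1043 and 974 normalized counts at day 4, against 4758, 4698 and 4761 at day 0 (log2 change -2.33, SE 0.06, adjusted p = 6.3e-23). Mvd held 216, 233 and 216 at day 4, against 571, 646 and 575 at day 0 (log2 change -1.43, SE 0.12, adjusted p = 1.1e-11), and Idi1 585, 621 and 607 at day 4, against 1557, 1577 and 1710.0 at day 0 (log2 change -1.42, SE 0.12, adjusted p = 1.8e-11). All 3 genes had no overlap between days.
The desaturases parted: Scd1 fell, with 935, 919 and 944 normalized counts at day 4, against 2022, 2154 and 2152 at day 0 (log2 change -1.18, SE 0.15, adjusted p = 4.1e-08), while Scd2 rose to 16314, 15221 and 15382 at day 4, against 10219.7, 11711 and 12108 at day 0 (log2 change 0.47, SE 0.14, adjusted p = 0.0029). Fads1 (0.54, adjusted p = 3.7e-06) and Fads2 (0.48, adjusted p = 6.5e-04) rose. Sc5d was the sterol enzyme that rose, with 749.9, 755 and 781 normalized counts at day 4, against 436, 397 and 395 at day 0 (log2 change 0.90, SE 0.08, adjusted p = 1.5e-10).
Hmgcs1 (-0.00), Cyp51 (0.01), Ebp (-0.06) and Hsd17b7 (-0.20) were the sterol enzymes not called, with adjusted p between 0.18 and 0.97. Among regulators Srebf1 rose (0.24, adjusted p = 0.003) and Srebf2 fell (-0.18, adjusted p = 0.013), but the Srebf2 change was 0.044 under quantile scaling and was not called without day 0 WT library 3 (-0.14, adjusted p = 0.073).

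**Figure D4:**
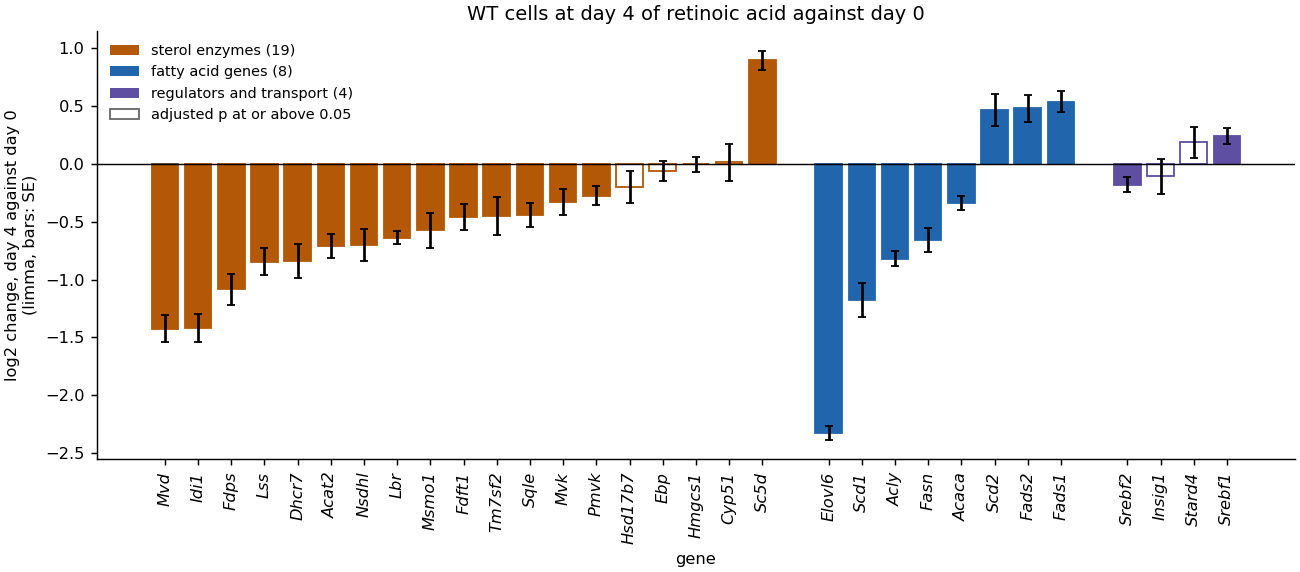
Log2 change of each member in WT cells at day 4 against day 0 (bars, with SE from limma), open where the adjusted p is at or above 0.05. Elovl6 (-2.33), Mvd (-1.43) and Idi1 (-1.42) fall most, and Sc5d (0.90), Fads1 (0.54), Fads2 (0.48) and Scd2 (0.47) rise.

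Whether a mutant's change from WT differed between the days, as day 4 minus day 0, was tested in the fit of all 24 libraries. For Mll1-KO it was positive for 6 of 19 sterol enzymes, 4 of 8 fatty acid genes and 2 of 4 regulators, and negative for Elovl6, beside 15% of all genes called positive and 19% negative. The 4 positive fatty acid genes were the 4 desaturases, Scd2 (1.12, adjusted p = 5.6e-05), Fads2 (0.89, adjusted p = 1.8e-04), Scd1 (0.86, adjusted p = 0.0022) and Fads1 (0.79, adjusted p = 1.9e-05). Tm7sf2 (0.78), Mvd (0.67) and Dhcr7 (0.66) had the largest positive differences among sterol enzymes, on the log2 scale, and 3 were called under quantile scaling. Insig1 was 0.03 (SE 0.22, adjusted p = 0.93), its change from WT being -0.83 at day 0 and -0.80 at day 4. Negative calls were 2 in the fatty acid arm without library 2 of Mll1-KO or library 3 of Mll2-KO at day 0. Scaled to equal column totals, calls over all genes were 3291 positive and 1793 negative, against 2260 and 2876, and the median of all genes was 0.10, against -0.01.
For double-KO the difference was negative for 3 of 8 fatty acid genes (Fasn -0.93, adjusted p = 8.5e-06, Acaca -0.31 and Elovl6 -0.26) and for 2 sterol enzymes (Acat2 -0.69 and Mvk -0.41) and positive for Hsd17b7 (1.38, adjusted p = 2.7e-06), beside 19.2% of all genes called negative and 20.3% positive. The 2 negative sterol calls were 10 without library 3 of day 0 Mll2-KO, with 2 positive, beside 20.1% of all genes negative and 21.1% positive in that fit. The negative sterol calls were 1 without library 1 or 2 of day 0 WT, library 3 of day 0 double-KO, library 3 of day 4 WT or library 2 of day 4 double-KO.
For Mll2-KO it was positive for 3 sterol enzymes (Hsd17b7 0.83, Idi1 0.60 and Hmgcs1 0.47), for Scd2 (0.50) and for Insig1 (0.81) and Stard4 (0.54), and negative for Tm7sf2 (-0.66) and Fads1 (-0.36), beside 19.3% of all genes called positive and 17% negative. Without library 3 of day 0 Mll2-KO it was positive for 9 sterol enzymes, 5 fatty acid genes and 3 regulators and negative for 0, beside 18.1% of all genes called positive and 15.4% negative. The difference was then 1.18 for Insig1, 1.05 for Hsd17b7, 0.83 for Idi1, 0.58 for Hmgcs1, 0.81 for Scd2 and 0.80 for Stard4. The Scd2 call is lost without library 1 or 2 of Mll2-KO or library 2 or 3 of WT at day 0, library 1 or 3 of Mll2-KO or any 1 library of WT at day 4. The Tm7sf2 call is lost also without library 1 of WT at day 0, library 2 of Mll2-KO or library 3 of WT at day 4, and the Fads1 call without library 2 or 3 of WT at day 0, library 2 of Mll2-KO or library 1 of WT at day 4. The Stard4 call is lost without library 1 or 2 of Mll2-KO or library 3 of WT at day 0, library 3 of Mll2-KO or library 2 of WT at day 4. Calls over all genes under equal column totals were 2063 positive and 3433 negative, against 2922 and 2569.

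Other genes of sterol control were read beside the members. Of 6 genes of SREBP processing and its control, 2 rose and 0 fell in double-KO against WT at day 0, beside 26.6% of all genes called higher and 27.1% lower. They were Mbtps2, one of the proteases, at 0.21 and Sec24d, a coat protein of export vesicles, at 0.19 on the log2 scale. Both calls are lost when libraries are scaled to equal column totals (Mbtps2 0.15, adjusted p = 0.079; Sec24d 0.13, adjusted p = 0.15). The Mbtps2 call is lost also without library 2 of WT (0.18, adjusted p = 0.063), and the Sec24d call without library 1 or 3 of WT or library 1 or 2 of double-KO (adjusted p = 0.062 to 0.2), with no filter and under quantile scaling. Scap was 0.07 (adjusted p = 0.5). In Mll2-KO at day 0 Mbtps2 held 875, 854 and 821 normalized counts, against 694, 639 and 683 in WT (log2 change 0.34, SE 0.07, adjusted p = 3.8e-04), and it was the 1 gene of the 6 that rose there. In WT cells 5 of these 6 genes rose at day 4 and 0 fell, beside 43% of all genes called higher and 39.9% lower, with Sec24d at 1.64 and Scap at 0.86.
Of 9 other sterol and isoprenoid enzymes tested, of 12 listed, 2 rose and 4 fell in double-KO against WT at day 0, beside 26.6% of all genes called higher and 27.1% lower. Aacs, acetoacetyl-CoA synthetase, which feeds ketone bodies into lipid synthesis, held 799, 816 and 847 normalized counts in double-KO, against 379.8, 424 and 422 in WT (log2 change 1.01, SE 0.12, adjusted p = 7.1e-07), and changed by 0.87 at day 4 (adjusted p = 6.4e-10). The mitochondrial thiolase Acat1 fell at day 0, with 279, 249 and 234 in double-KO, against 562, 573 and 528 in WT (log2 change -1.13, SE 0.09, adjusted p = 3.6e-09), where its cytosolic counterpart Acat2 rose (0.84). Cyp39a1, an oxysterol hydroxylase, fell too (-0.51, adjusted p = 0.03), a call lost without library 3 of WT (-0.41, adjusted p = 0.13) or library 1 of double-KO (-0.29, adjusted p = 0.21), with no filter and under quantile scaling.

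Of 10 genes of LXR control, sterol storage and efflux, 4 fell and 2 rose in double-KO against WT at day 0, beside 27.1% of all genes called lower and 26.6% higher. The 4 that fell, all named here after their values were seen, included 3 LXR targets. The other genes of the list, Lpcat3 among them, were not called lower, and 4 of the 10 were not called in either direction. Mylip, a ubiquitin ligase induced by LXR, held 43.4, 44.6 and 46.4 normalized counts in double-KO, against 171, 174 and 198 in WT (log2 change -1.99, SE 0.16, adjusted p = 1.8e-09). Abca1, the sterol exporter, held 41.4, 37.9 and 43.8 in double-KO, against 132, 86.6 and 103 in WT (log2 change -1.34, SE 0.21, adjusted p = 1.5e-05). Abcg1, a second exporter, held 123, 135 and 178 in double-KO, against 304, 280.3 and 350.2 in WT (log2 change -1.11, SE 0.13, adjusted p = 4.3e-07). All double-KO libraries of the 3 genes lay below all WT libraries. Soat1, which esterifies sterol for storage, fell by 0.61 on the log2 scale (adjusted p = 1.4e-07), and Npc2, a lysosomal sterol carrier, rose (0.54, adjusted p = 7.6e-07).
In Mll1-KO at day 0 Mylip (-0.98, adjusted p = 3.9e-05) and Abcg1 (-0.69, adjusted p = 2.2e-04) fell, and Abca1 was -0.13 (adjusted p = 0.64). Of the 10 genes of the list 0 rose and 4 fell there, beside 21.3% of all genes called higher and 18.7% lower. In Mll2-KO at day 0 Abca1 (-0.95, adjusted p = 7.4e-04), Mylip (-0.73, adjusted p = 6.6e-04) and Abcg1 (-0.48, adjusted p = 0.004) all fell. In that group 3 of the 10 genes rose and 4 fell, beside 22.8% of all genes called higher and 24.3% lower. Libraries 1 to 3 of that group held 70.7, 53.2 and 41.9 normalized counts of Abca1, 113, 119 and 94.6 of Mylip and 231, 231 and 204 of Abcg1. Library 3 was the lowest of its group in the 3 genes, and each of the 3 libraries lay below every WT library. At day 4 Abca1 (log2 change -0.57, SE 0.08, adjusted p = 3.6e-06) and Mylip (log2 change -0.73, SE 0.11, adjusted p = 2.9e-06) were lower in double-KO than in WT. Abcg1 was not called there (0.35, adjusted p = 0.095), with 91.8, 93.5 and 90.1 normalized counts in double-KO, against 60.0, 92.2 and 67.2 in WT. Of the 10 genes of the list 2 rose and 2 fell in double-KO at day 4, beside 27.6% of all genes called higher and 23.3% lower. Abca1 was higher in Mll1-KO than in WT at day 4 (0.42, adjusted p = 3.2e-04).

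**Figure D5:**
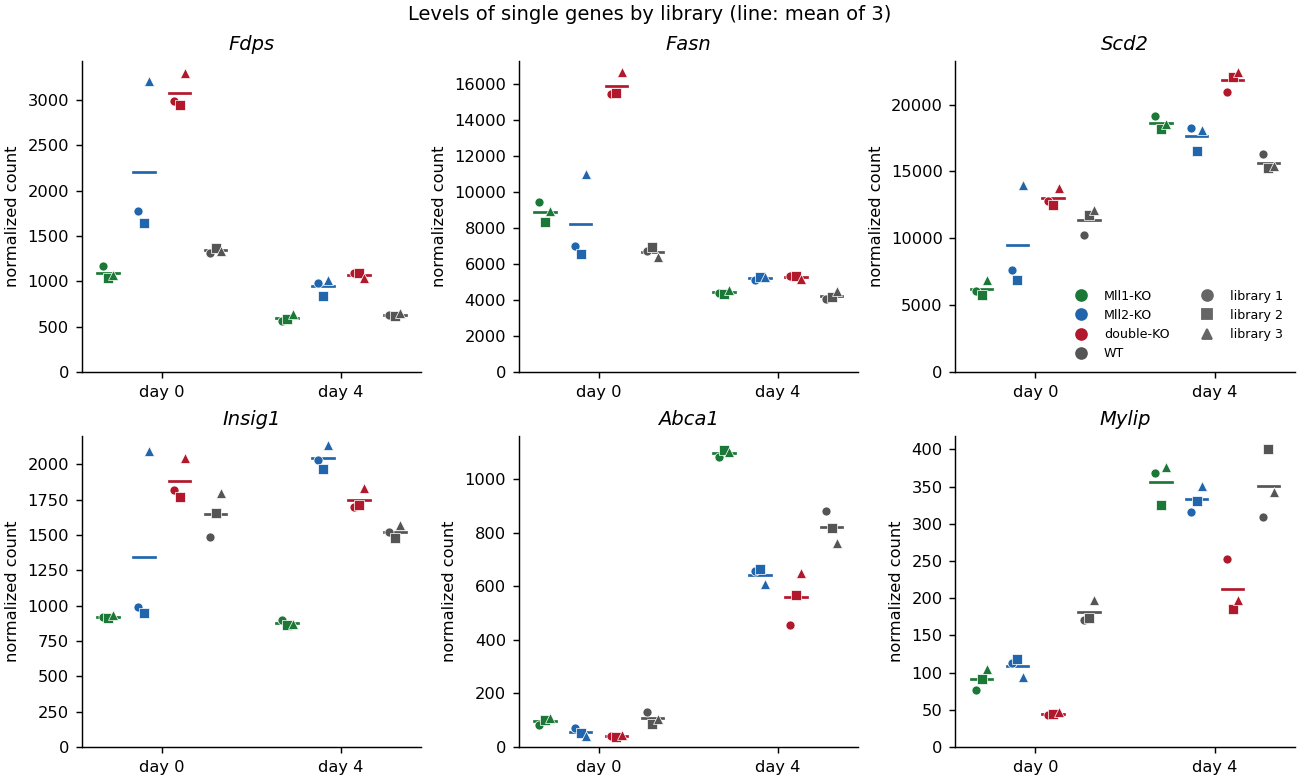
Normalized counts of Fdps, Fasn, Scd2, Insig1, Abca1 and Mylip in every library (points, lines are means of 3), by genotype (colour) and day (horizontal axis). At day 0 Mylip is 43.4 to 46.4 in double-KO and 171 to 198 in WT, and Fdps is 2939 to 3292 in double-KO and 1315 to 1370.1 in WT.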

How the data were processed

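RNA was measured by stranded polyA RNA-seq in 24 libraries. Per the submitters' processing notes, the build was mm10 and the tools included DESeq2 1.34.0, RSEM 1.3.1 and STAR 2.7.10a, beside SAMtools 1.13, Trim Galore 3.4 and FastQC. The deposited table holds a normalized signal per gene. How the authors made it is not given in the sources used here, but its values are those of counts divided by 1 factor per library. All values (100%) came out as whole multiples of 1 read within 1e-06, so whole reads and library totals were recovered, and edgeR called 3721 genes higher and 3842 lower in double-KO against WT at day 0.

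Genes with at least 10 normalized counts in at least 3 libraries were fitted with limma 3.58.1 (trend) on log2(value + 1), which understates changes of low genes. The 12 libraries of a day shared a fit, and all 24 were used for comparisons across days, with Benjamini-Hochberg adjustment over the genes that passed (13984 for day 0, 14303 for day 4 and 15114 for both), in 16 comparisons. Alternatives used edgeR 4.0.16, DESeq2 1.42.0, other pseudocounts, filters and scalings, a replicate block and leaving out each library. Fits without day 0 Mll2-KO library 3 for comparisons that do not hold that group were added after seeing the data. Replicate numbers are not stated to pair libraries. The fits were tested on simulated data.

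The members, lists and rules were chosen with earlier results of these data known. Full values were due, in each comparison, to the called members with the largest change in each arm and direction (up to 3) and to the regulators, and up to 2 rises and 2 falls were to be named from each other list. Values by library are given for some of these and for further members of interest, which were chosen after their values were seen. A gene listed beside the members is not reported here. Exon lengths, shared stretches and gene positions are from GENCODE mouse release 21 on GRCm38, and promoters from RefSeq. Library totals were 10.7 to 22.8 M reads, and day 4 libraries were the shallower ones. By read number alone their single counts are less precise. In the fits with all libraries, the SEs given above for Insig1, Fdps and Scd1 against WT were nevertheless smaller at day 4 than at day 0. Without library 3 of day 0 Mll2-KO, the day 0 SEs in Mll1-KO were 0.062 for Insig1 and 0.056 for Scd1. That of Fdps in double-KO was then 0.054.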

Additional observations from a re-analysis of the deposited data

Results flagged for a closer look

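Each value here is the difference, on the log2 scale, between 2 changes of the same member, and it is listed because limma put that difference at an adjusted p below 0.05 over all genes. Those named are the regulators and up to 3 members of each arm and direction with the largest differences. The part of other differences between the groups was not tested.

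For non-additivity at day 0, the change of double-KO against Mll1-KO less the change of Mll2-KO against WT was 0.96 for Idi1, 0.95 for Msmo1, 0.85 for Dhcr7, 1.10 for Scd1, 1.39 for Scd2, 0.63 for Fads2, 1.41 for Insig1, 0.60 for Srebf1 and 1.06 for Stard4. These draw on library 3 of Mll2-KO, which stands apart from libraries 1 and 2. At day 4 the same difference was 0.39 for Idi1, 0.36 for Sqle, 0.35 for Msmo1 and 0.57 for Insig1.

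For Mll1-KO against WT, the change at day 4 less that at day 0 was 0.67 for Mvd, 0.78 for Tm7sf2, 0.66 for Dhcr7, -0.55 for Elovl6, 0.86 for Scd1, 1.12 for Scd2, 0.89 for Fads2, 0.68 for Srebf1 and 0.58 for Stard4. For Mll2-KO it was 0.47 for Hmgcs1, 0.60 for Idi1, -0.66 for Tm7sf2, 0.83 for Hsd17b7, 0.50 for Scd2, -0.36 for Fads1, 0.81 for Insig1 and 0.54 for Stard4. These Mll2-KO values also draw on library 3 of day 0 Mll2-KO. Without that library 0 sterol enzymes and 0 fatty acid genes were called negative. For double-KO the difference between the days was -0.69 for Acat2, -0.41 for Mvk, 1.38 for Hsd17b7, -0.31 for Acaca, -0.93 for Fasn and -0.26 for Elovl6.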

How the results depend on the processing

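Single members followed here were the regulators and up to 3 called members of each arm and direction with the largest changes. Of their alternative values 2920 kept the state of the call, whether called or not. In 161 the call was lost, in 24 one was gained and 2 reversed direction. Direction was compared only where the fit reported had a call. Both reversals were under quantile scaling: Srebf2 in double-KO against WT at day 4 (-0.0056) and in WT at day 4 against day 0 (0.044). Counts of calls that moved by over 1.5 times follow, and the cause was not tested beyond what each setting changes. With equal column totals 14 sterol enzymes were lower in Mll1-KO at day 0, 2 higher in Mll1-KO at day 4, and for the day difference of Mll2-KO 2 sterol enzymes and 2 fatty acid genes were lower and 0 fatty acid genes higher. Under quantile scaling 0 sterol enzymes were lower in double-KO at day 0, and the day differences gave 3 sterol enzymes higher in Mll1-KO, 0 sterol enzymes lower, 0 fatty acid genes higher and 2 lower in Mll2-KO, and 2 sterol enzymes higher and 1 lower in double-KO. DESeq2 called 4 sterol enzymes lower and 0 fatty acid genes higher in Mll1-KO at day 0, 6 sterol enzymes higher in double-KO against Mll2-KO at day 0, 7 sterol enzymes and 1 fatty acid gene for non-additivity at day 0, 0 sterol enzymes higher in Mll1-KO at day 4, and 0 fatty acid genes higher in the day difference of Mll2-KO. edgeR called 5 fatty acid genes higher in Mll2-KO at day 0, 0 higher and 2 lower in the day difference of Mll2-KO, and 4 sterol enzymes lower in that of double-KO. With no filter 2 fatty acid genes were called for non-additivity at day 0, 0 were higher in the day difference of Mll2-KO, and 1 sterol enzyme was lower in that of double-KO. A pseudocount of 5 gave 2 fatty acid genes lower in the day difference of Mll1-KO, and one of 0.5 gave 0 higher in that of Mll2-KO. With other libraries in the fit 0 sterol enzymes were higher and 1 lower, and 1 fatty acid gene lower, in Mll1-KO at day 4, 0 sterol enzymes were higher and 1 lower in double-KO against Mll2-KO at day 4, 0 were called for non-additivity at day 4, and the day differences gave 2 fatty acid genes lower in Mll1-KO, 0 higher and 0 lower in Mll2-KO, and 2 sterol enzymes higher and 8 lower in double-KO. Calls over all genes for non-additivity at day 4 were then 565 positive and 435 negative, against 1085 and 866.

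A replicate block gave 2 fatty acid genes lower in the day difference of Mll1-KO and 4 sterol enzymes lower in that of double-KO, and moved no other count of sterol or fatty acid calls above 0 by over 1.5 times. Counts of regulators were not run with the block. Same-numbered libraries had residual correlations of -0.04 to 0.09, with a median of 0.02.

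Leaving out 1 library at a time, the sterol enzymes called lower in Mll1-KO at day 0 numbered 4 to 14. Sterol enzymes higher in Mll2-KO at day 0 numbered 6 to 14, and fatty acid genes 1 to 6. Those lower in double-KO at day 0 were 0 to 1, and fatty acid genes higher in double-KO against Mll2-KO were 2 to 7. Non-additivity at day 0 called 2 to 7 fatty acid genes. At day 4 sterol enzymes higher in Mll1-KO were 0 to 1, and in double-KO against Mll2-KO 0 to 7 were higher and 1 to 2 lower. The day difference of Mll1-KO gave 1 to 2 fatty acid genes lower, that of Mll2-KO 3 to 9 sterol enzymes higher and 0 to 2 lower with 0 to 5 fatty acid genes higher and 0 to 2 lower, and that of double-KO 1 to 2 sterol enzymes higher and 1 to 10 lower. The other counts of sterol and fatty acid calls that were above 0 with all libraries held within 1.5 times in these runs, and counts of regulators were read only without library 3 of day 0 Mll2-KO.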

Other observations

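Beside the members, 19 other genes of fatty acid synthesis, elongation and use were read, of which 18 passed the filter at day 4. In double-KO cells 4 of 19 rose and 7 fell against WT at day 0, beside 26.6% of all genes called higher and 27.1% lower. At day 4 in the same cells 6 of 18 rose and 2 fell, beside 27.6% and 23.3% of all genes, and the difference between the days was not tested for the list. Me1, malic enzyme, which supplies NADPH for lipid synthesis, held 536, 549.6 and 540.5 normalized counts in Mll1-KO and 480.3, 511 and 457 in double-KO, against 1005, 1016 and 1065 in WT at day 0 (log2 change -0.92 in Mll1-KO, adjusted p = 6.1e-10, and -1.09 in double-KO, adjusted p = 2.4e-11). It thus fell in cells whose Fasn rose, although DESeq2 did not call the Fasn rise in Mll1-KO. Thrsp, a lipogenic regulator known from liver, held 7.20, 11.7 and 5.90 normalized counts in Mll1-KO and 10.8, 5.05 and 8.60 in double-KO, against 20.7, 19.0 and 18.6 in WT at day 0 (log2 change -1.19 in Mll1-KO, adjusted p = 0.023, and -1.21 in double-KO, adjusted p = 0.015). At day 4 Me1 was higher in Mll2-KO (log2 change 0.49, SE 0.04, adjusted p = 1.7e-09).

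Lpin1, a phosphatidate phosphatase of triglyceride synthesis, fell in Mll1-KO at day 0 (log2 change -0.69, SE 0.09, adjusted p = 6.9e-06) and rose in double-KO at day 4 (log2 change 0.69, SE 0.06, adjusted p = 2.3e-09). Among elongases Elovl5 was lower in Mll2-KO at day 4 (log2 change -0.52, SE 0.05, adjusted p = 1.7e-09), and Elovl7 held 172, 235 and 182 normalized counts in double-KO, against 372, 375 and 419 in WT (log2 change -0.99, SE 0.10, adjusted p = 1.4e-08). These genes were chosen for description after their values were seen.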
